A study of Mus musculus with 16 samples.

Results

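The 30 genes described here encode the enzymes that build cholesterol and fatty acids and the proteins that switch these enzymes on. They were chosen by gene symbol and make up 30 of the 54347 genes counted. By role, 7 act in the mevalonate pathway, 3 make lanosterol from farnesyl diphosphate through squalene, 8 turn lanosterol into cholesterol, 5 control the sterol regulatory element binding proteins (SREBPs), 1 carries sterol between membranes and 6 make fatty acids or the acetyl-CoA they are built from.

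Cells make cholesterol from acetyl-CoA through mevalonate, farnesyl diphosphate, squalene and lanosterol, and the same route supplies the isoprenoid tails of signalling proteins and of coenzyme Q. SREBP2, the product of *Srebf2*, and SREBP1, the product of *Srebf1*, are membrane-bound transcription factors that the escort protein SCAP carries from the endoplasmic reticulum to the Golgi, where proteases release the active part, and INSIG1 and INSIG2 hold SCAP back when sterol is plentiful. The active factors bind sterol regulatory elements in promoters, mostly of sterol genes for SREBP2 and of fatty acid genes for SREBP1, and dividing blood progenitors draw on both products for new membranes.

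Bulk RNA-seq had been made from 16 bone marrow samples of C57BL/6 littermates aged 8 to 12 weeks, 4 in each of 4 groups numbered as replicates 1 to 4. WT mice carried the intact URE, the upstream enhancer of *Spi1* (the gene of the transcription factor PU.1), and UREΔ mice were knockouts of this enhancer on both alleles in every cell of the animal. From each genotype, lineage-negative cells with c-Kit and Sca-1 (LSKs, a stem and early progenitor fraction) and those with c-Kit and Cd16/32 but no Sca-1 (GMPs, granulocyte-monocyte progenitors) were sorted after enrichment for c-Kit, which all 4 groups therefore share. Up to 10 ng of RNA entered each low-input library. No group was labelled as treated or leukemic, and the study describes a preleukemic phase of months in UREΔ mice before leukemia. The sources used here do not say whether the LSKs and GMPs of 1 number came from the same mouse, and in bulk samples a lower share of cells with a transcript and less RNA per cell cannot be told apart.

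The libraries held between 20028302 and 29128858 estimated counts. *Spi1* stood between 69.5 and 166 CPM (counts per 1000000 counts of the library) in WT LSKs against 1.13 to 4.44 in UREΔ LSKs, and between 84.8 and 181 CPM in WT GMPs against 15.6 to 28.6 in UREΔ GMPs, so each library matched its genotype label. The summed level of 6 stem cell genes was 1110 to 2430 CPM in LSKs and 86.8 to 417 in GMPs, and that of 5 GMP genes was 693 to 1600 CPM in LSKs and 55000 to 160000 in GMPs. Several lists of marker genes differed between genotypes without overlap of their summed levels. In LSKs the 5 monocyte genes went from 52.0 to 102 CPM in WT to 12.8 to 27.8 in UREΔ, the 5 B cell genes from 58.3 to 83.4 to 24.8 to 36.4, the 4 mast cell and basophil genes from 21.9 to 42.5 to 87.5 to 157 and the stem cell genes from 1400 to 2430 to 1110 to 1340. In GMPs the 6 neutrophil genes went from 44.9 to 144 CPM in WT to 217 to 994 in UREΔ, the B cell genes from 61.4 to 89.2 to 8.2 to 23.6, the 5 T and NK cell genes from 563 to 977 to 1350 to 2230, the stem cell genes from 222 to 417 to 86.8 to 186 and the GMP genes from 55000 to 70400 to 73700 to 160000. The summed monocyte genes overlapped in GMPs, but by the rule given below 4 of the 5 were called lower in UREΔ, where 6.82% of all genes were. Their median log2 fold change was -3.00, and 1 of them had a positive estimate, of 0.96. Likewise 4 of the 6 neutrophil genes were called higher in UREΔ LSKs, where 3.83% of all genes were, at a median of 1.43. Some sums hid genes of the other direction. In LSKs 3 mast cell and basophil genes were tested. Of these 2 were called higher, and 1 had an estimate of -2.14. Of the 6 stem cell genes 2 were called lower in LSKs, where 5.62% of all genes were, and 2 had positive estimates. In GMPs 3 of the 6 were called lower, where 6.82% of all genes were, and 2 had positive estimates. Of these lists *Pax5* of B cells and *Cd3e* and *Cd8a* of T cells stayed under 0.5 CPM in all 16 libraries. Only 1 of the 5 B cell genes and 2 of the 5 T and NK cell genes had enough counts in GMPs to be tested singly. In LSKs 3 of the B cell genes did. The part of any list in the results below was not tested. Replicates 1 and 4 stood apart from replicates 2 and 3 in all 4 groups, so the replicate number was a term of every fit. Summed Y-linked transcripts were alike between genotypes in replicates 1 and 4 but reached 308 to 360 CPM in WT and at most 0.365 in UREΔ libraries of replicates 2 and 3, where genotype and sex of the mice cannot be told apart.

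Promoter sequences frame the members because the SREBPs reach them through short promoter elements. RefSeq start sites on GRCm38.p6 were at hand for 24 of the 30 members, and *Stard4*, *Sqle*, *Fdps*, *Fdft1*, *Scd1* and *Scd2* had no entry. In the 250 bases before the start, searched on both strands, the sterol regulatory element TCACNCCAC was found in 1 of 24 members, *Hmgcs1*, against 1.22% of all 27025 genes. Its first 8 letters, TCACNCCA, a shorter search added after that count was seen, were found in 3 members, *Hmgcs1*, *Msmo1* and *Srebf2*, against 4.20% of all genes. CCAAT, the box bound by NF-Y, was present in 20 members (83.3%) against 37.5% of all genes, and GGGCGG, the box bound by Sp1, in 21 members (87.5%) against 35.4%. CACGTG, an E-box, was found in 5 members (20.8%) against 6.86%, and GAGGAAGT, an ETS element of the PU.1 kind, in 1 member, *Scap*, against 2.79%. TCACNCCA is contained in TCACNCCAC, and the other elements were counted independently of it.

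The stretches before *Srebf2* and *Hmgcs1* are shown because they hold TCACNCCA, in the gene of SREBP2 and in that of an early enzyme of the pathway, and the stretch before *Insig1*, the feedback gene, because it holds a CCAAT box and not those letters. The longer element TCACNCCAC is present in *Hmgcs1* and absent from the *Srebf2* window. They were chosen after these matches and the values below had been seen. Each is printed 5′ to 3′ on the strand of the gene, which is the plus strand for all 3, only up to the first annotated exon base, with TCACNCCA and CCAAT in capitals in either orientation. *Srebf2* lies at chr15:82147019-82147180, *Hmgcs1* at chr13:119690101-119690350 and *Insig1* at chr5:28071162-28071362.
Srebf2: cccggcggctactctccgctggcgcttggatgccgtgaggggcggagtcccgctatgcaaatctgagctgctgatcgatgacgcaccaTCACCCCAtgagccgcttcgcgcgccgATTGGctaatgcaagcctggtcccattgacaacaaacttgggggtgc
Hmgcs1: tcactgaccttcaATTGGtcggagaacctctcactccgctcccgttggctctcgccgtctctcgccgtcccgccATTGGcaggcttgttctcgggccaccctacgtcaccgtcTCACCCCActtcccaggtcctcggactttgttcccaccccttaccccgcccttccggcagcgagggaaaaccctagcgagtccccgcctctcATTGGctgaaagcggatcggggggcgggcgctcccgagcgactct
Insig1: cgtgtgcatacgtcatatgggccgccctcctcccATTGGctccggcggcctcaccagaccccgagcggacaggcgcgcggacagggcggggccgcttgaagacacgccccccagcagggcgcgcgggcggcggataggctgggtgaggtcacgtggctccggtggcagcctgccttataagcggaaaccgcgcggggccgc

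In *Srebf2* the match read TCACCCCA and ended 154 bases before the RefSeq start, with a single CCAAT box downstream of it. In *Hmgcs1* it read TCACCCCA, was followed by the final C of the longer element, ended 129 bases before the start and lay among 3 CCAAT boxes. In *Msmo1*, whose window on chromosome 8 is mostly annotated exon and is therefore not printed, the match read TCACTCCA and ended 169 bases before the start.

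All members apart from *Scd1* were transcribed in both fractions. Per kilobase of exon and averaged over the 16 libraries, *Acly*, the ATP citrate lyase that supplies cytosolic acetyl-CoA, had the highest level at 75.0 CPM per kb, before *Acat2* (56.6) and *Ebp* (31.4), whereas *Tm7sf2* (1.39) and *Hsd17b7* (1.74) were low. *Scd1*, a stearoyl-CoA desaturase of liver and fat, had 0 to 75 counts per library and was too low in GMPs to be tested there, and *Scd2*, its relative in other tissues, stood at 11.0 CPM per kb. Neighbouring or copied genes share sequence with some members. *Fdps* overlaps *Gm43738*, which was at most 0.156 CPM, and *Tm7sf2* overlaps 532 exonic bases of *Vps51* (18.5 to 67.1 CPM), on the same strand. On the opposite strand *Fdft1* overlaps 774 bases of *Ctsb* (285 to 660 CPM), *Acss2* 395 bases of *Gss* (31.6 to 53.9 CPM), *Cyp51* 166 bases of *Akap9* (93.6 to 361 CPM) and *Srebf1* 109 bases of *Rai1* (10.2 to 34.0 CPM). *Acat2* matches 445 bases of *Tcp1* (209 to 647 CPM) at 98.7% identity, and *Dhcr7* holds stretches of 200 to 226 bases that recur in many genes, *Ppil4* (74.9 to 120 CPM) among them. The levels of the 7 members named after *Fdps* are uncertain to that extent in this unstranded protocol. *Srebf2*, *Sqle* and *Msmo1* overlap no other annotated exon.

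In LSKs 3 members were called lower without the enhancer, the regulator *Srebf2* and the sterol enzymes *Sqle* and *Msmo1*, and no member was called higher; with the Y-linked level as a further term 0 were called lower, where 2.61% of all genes were in that fit. Calls needed a fold above 1.5 together with an adjusted p under 0.05 (edgeR quasi-likelihood test, Benjamini-Hochberg over all genes tested). By that rule 3 of 30 members were called lower, where 5.62% of all 15154 genes tested were, and 0 were called higher, where 3.83% of all genes were; at an unadjusted p under 0.05 there were 2 members higher (10.4% of all genes) and 11 lower (12.6%). DESeq2 called 1 member higher and 5 lower, where it called 4.97% and 6.66% of the genes it gave an adjusted p.

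*Srebf2* (chr15:82147181-82205379) encodes SREBP2. Its level in WT LSKs was 480 CPM in replicate 1, 129 in replicate 2, 95.9 in replicate 3 and 269 in replicate 4. In UREΔ LSKs it was 161, 24.0, 47.6 and 138 CPM in the same order. The groups overlapped because the replicates differed, but the UREΔ library was the lower of each same-numbered pair, by between 0.96 and 2.43 on the log2 scale. The fitted log2 fold change was -1.52 ± 0.24 (SE, n = 4 per group; adjusted p = 0.00653 by edgeR), a 2.87-fold lower level. Without the replicate block the adjusted p was 0.347, and an exact two-sided permutation test over the unpaired libraries gave p = 0.171.

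*Sqle* (chr15:59315077-59331192) encodes squalene epoxidase, which puts the first oxygen on squalene. It stood at 68.5, 69.6, 58.7 and 98.9 CPM in WT LSKs of replicates 1 to 4 and at 42.7, 37.1, 39.5 and 62.3 CPM in UREΔ LSKs. Only UREΔ replicate 4 reached into the WT range, and the log2 fold change was -0.74 ± 0.12 (SE, n = 4; adjusted p = 0.00891 by edgeR), a 1.67-fold lower level. Without the block its adjusted p was 0.113, and without replicate 1 it was 0.0637.

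*Msmo1* (chr8:64718139-64733792) encodes the methylsterol monooxygenase that starts removal of the methyl groups at carbon C4 of the ring. Its WT LSK levels were 35.1, 49.9, 53.5 and 51.1 CPM and its UREΔ LSK levels 24.3, 27.9, 26.9 and 25.1 CPM. The groups did not overlap, and the log2 fold change was -0.88 ± 0.15 (SE, n = 4; adjusted p = 0.00903 by edgeR), a 1.84-fold lower level that was also called without the block, at an adjusted p of 0.0220. Without replicate 4 the adjusted p was 0.0520. With the Y-linked level as a further term none of the 3 genes was called, at log2 fold changes of -1.30 for *Srebf2*, -0.70 for *Sqle* and -0.80 for *Msmo1*. In replicates 1 and 4 alone the log2 fold changes were -0.70 for *Sqle* and -0.83 for *Msmo1*, and in replicates 2 and 3 alone -0.77 and -0.95, none of them called.

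The other enzymes of the sterol route were not called in LSKs, and their estimates were mostly below 0. Estimates were negative for 7 of 7 mevalonate genes, 3 of 3 squalene genes and 7 of 8 ring genes, and for 21 of 30 members in all, where 7878 of 15154 genes were negative. Of the 7 mevalonate genes only 1 was lower in 4 of 4 pairs, and *Acat2* and *Idi1* were higher in 3 of 4. The median was -0.14 over the members and -0.02 over all genes tested. In 4 of 4 pairs 12 members were lower, where 16.5% of all genes were, and 4 were higher, where 16.2% were. The groups were apart, with UREΔ lower, for 3 members (6.90% of all genes), which were *Msmo1*, *Fdft1* and *Tm7sf2*. *Fdft1*, squalene synthase, spanned 28.4 to 35.0 CPM in WT and 22.5 to 27.2 in UREΔ LSKs. *Tm7sf2*, a sterol reductase of the C14 double bond, spanned 3.75 to 5.07 CPM in WT and 1.81 to 3.39 in UREΔ LSKs. *Cyp51*, the lanosterol demethylase, stood at 47.3, 56.5, 40.3 and 55.8 CPM in WT and at 30.3, 41.2, 32.1 and 40.7 CPM in UREΔ LSKs, lower in each pair with ranges that overlap.

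Of the control genes, *Insig1*, itself a target of the SREBPs, was lower in 4 of 4 pairs, with 19.0 to 40.5 CPM in WT and 15.1 to 28.7 CPM in UREΔ LSKs. Its log2 fold change of -0.51 ± 0.15 (SE, n = 4) had an adjusted p of 0.0875 by edgeR and was not called. *Insig2* was at 31.2 to 38.7 CPM in WT and 30.6 to 42.0 CPM in UREΔ LSKs, with a log2 fold change of 0.02 ± 0.14 (SE, n = 4; adjusted p = 0.960 by edgeR). *Srebf1* had a log2 fold change of 0.18 ± 0.17 (SE, n = 4; adjusted p = 0.612 by edgeR), and *Scap* was higher in 4 of 4 pairs without being called.

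Of the 6 fatty acid genes 0 were called in LSKs, where 3.83% of all genes were called higher and 5.62% lower. Their estimates were positive for 4, as for 7276 of all 15154 genes tested. *Acaca*, the acetyl-CoA carboxylase that commits carbon to fatty acids, stood at 37.3, 16.8, 15.3 and 33.0 CPM in WT and 48.6, 19.0, 36.7 and 58.2 CPM in UREΔ LSKs. *Fasn*, the fatty acid synthase, went from 98.6, 54.3, 42.4 and 75.4 CPM to 128, 54.4, 53.7 and 100 CPM. Both, like *Acly*, were higher in 4 of 4 pairs, and *Scd1* and *Scd2* were lower in 4 of 4. *Stard4*, which carries sterol through the cytosol, had a range of 66.9 to 120 CPM in WT and 89.7 to 125 CPM in UREΔ LSKs.

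**Figure D1:**
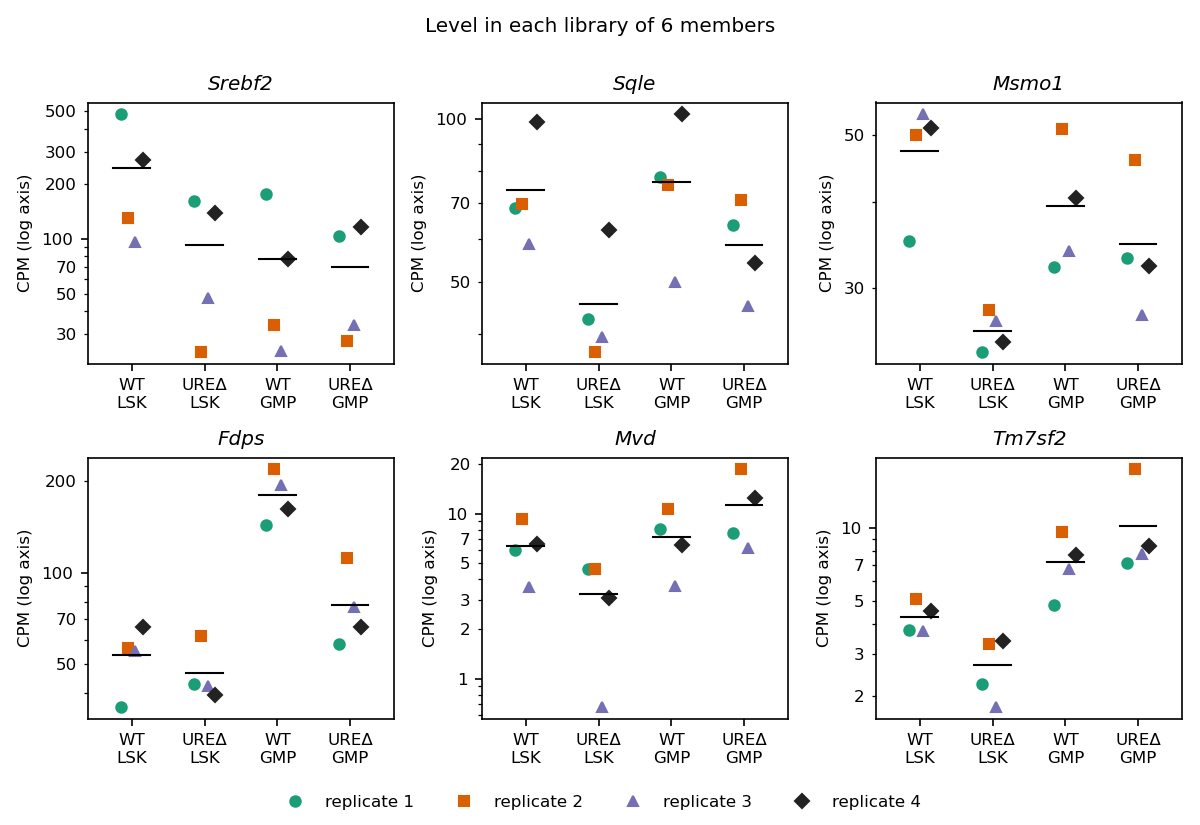
Level of 6 members in each library, in CPM on a log axis that differs between panels, for the 4 groups; symbols mark the replicate number and the line is the mean of 4 libraries. *Srebf2* is lower in UREΔ than in WT LSKs within each replicate number, *Msmo1* shows no overlap between the LSK groups, and *Fdps* in GMPs lies at 144 to 219 CPM in WT against 58.1 to 112 in UREΔ.

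In GMPs *Fdps* was the single member called between genotypes, and it was lower. It encodes farnesyl diphosphate synthase, the branch point from which sterols, coenzyme Q and prenyl groups are made (chr3:89093588-89101959). *Fdps* stood at 144, 219, 194 and 162 CPM in WT GMPs of replicates 1 to 4 and at 58.1, 112, 76.7 and 66.0 CPM in UREΔ GMPs. Every UREΔ library was below every WT library, as for 6.98% of all genes tested, with a log2 fold change of -1.23 ± 0.12 (SE, n = 4; adjusted p = 0.000631 by edgeR), a 2.35-fold lower level. It stayed called without the block (adjusted p = 0.0114), with the Y-linked term (0.0115) and in replicates 1 and 4 alone (0.00927), but not in replicates 2 and 3 alone, at a log2 fold change of -1.16 (0.114).

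By the same rule 1 of 29 members tested was called lower, where 6.82% of all 13829 genes were, and 0 were called higher, where 9.52% were; at an unadjusted p under 0.05 there were 4 members higher (17.8% of all genes) and 1 lower (14.3%). DESeq2 called 1 member in each direction, where it called 9.59% of genes higher and 6.99% lower. Estimates were positive for 20 of 29 members, where 7098 of 13829 genes were positive. The median was 0.16 over the members and 0.01 over all genes tested. *Srebf2* had 176, 33.6, 24.3 and 77.2 CPM in WT and 104, 27.4, 33.6 and 116 CPM in UREΔ GMPs. The groups overlapped widely and the pairs split 2 against 2, with a log2 fold change of -0.01 ± 0.24 (SE, n = 4; adjusted p = 0.986 by edgeR). *Sqle* was lower in 4 of 4 pairs, at 78.0, 75.5, 49.9 and 102 CPM in WT and 63.8, 70.9, 45.1 and 54.2 CPM in UREΔ GMPs, but was not called. *Msmo1* ranged from 32.2 to 51.0 CPM in WT and from 27.5 to 45.9 CPM in UREΔ GMPs.

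None of the 5 control genes was called in GMPs, where 9.52% of all genes were called higher and 6.82% lower. *Insig2* stood at 35.3, 33.7, 23.5 and 27.7 CPM in WT and 45.5, 51.7, 40.1 and 33.5 CPM in UREΔ GMPs. It was the higher in each pair, and its log2 fold change of 0.50 ± 0.15 (SE, n = 4; adjusted p = 0.0506 by edgeR), a 1.41-fold higher level, met neither the p nor the fold threshold. *Insig1* had a log2 fold change of -0.16 ± 0.24 (adjusted p = 0.706 by edgeR) and *Srebf1* one of 0.38 ± 0.24 (adjusted p = 0.321 by edgeR), neither called. *Scap* was at 96.0, 12.9, 16.6 and 52.7 CPM in WT and 103, 29.1, 22.5 and 110 CPM in UREΔ GMPs, higher in 4 of 4 pairs and not called. Of the ring genes, *Dhcr7*, which makes cholesterol in the last step of one branch, ranged from 22.6 to 58.4 CPM in WT and 35.5 to 69.8 CPM in UREΔ GMPs.

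**Figure D2:**
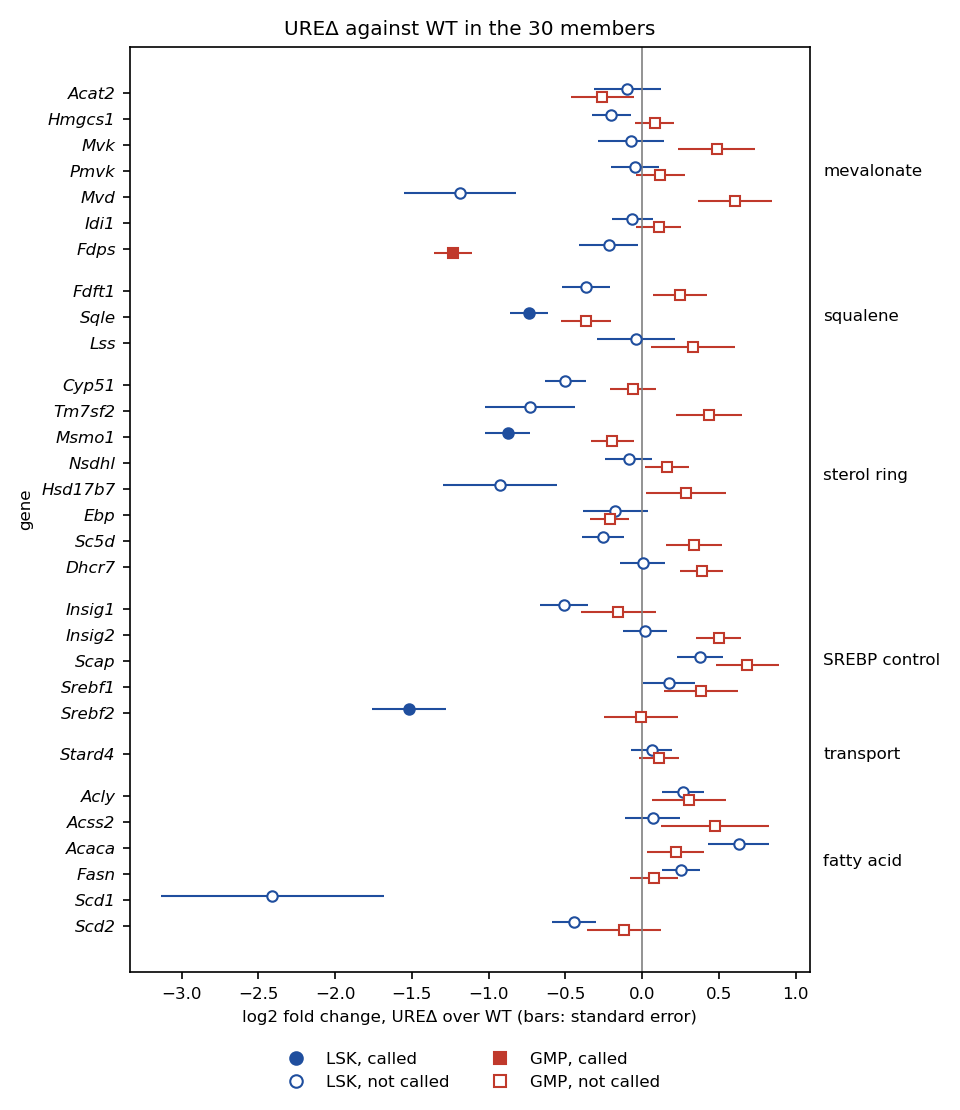
Log2 fold change of UREΔ over WT for the 30 members in LSKs (circles) and GMPs (squares), with bars for the standard error, grouped by role; filled symbols were called and *Scd1* was not tested in GMPs. The sterol genes lie mostly below 0 in LSKs, where 21 of 30 members are negative, and mostly above 0 in GMPs, where 20 of 29 are positive.

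Whether the enhancer deletion acted differently in the 2 fractions was tested as the difference of the genotype effects, GMP minus LSK, over all 16 libraries. At an adjusted p under 0.05 it was called higher for 3 members, *Mvd*, *Srebf2* and *Tm7sf2*, where 3.97% of 15935 genes were, and lower for 1, *Fdps*, where 2.60% were. *Mvd*, the decarboxylase that makes isopentenyl diphosphate (chr8:122433601-122443422), had 5.99, 9.30, 3.59 and 6.57 CPM in WT LSKs and 4.64, 4.64, 0.674 and 3.09 CPM in UREΔ LSKs. In GMPs it had 8.10, 10.6, 3.62 and 6.48 CPM in WT and 7.67, 18.5, 6.20 and 12.5 CPM in UREΔ. It was thus the lower in 4 of 4 LSK pairs and the higher in 3 of 4 GMP pairs, and the difference was 1.73 ± 0.41 (log2, SE; adjusted p = 0.0242 by edgeR).

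For *Srebf2* the difference was 1.46 ± 0.34 (adjusted p = 0.0213 by edgeR) and for *Tm7sf2* 1.15 ± 0.31 (adjusted p = 0.0406 by edgeR). *Tm7sf2* (chr19:6062821-6068373) was lower in 4 of 4 LSK pairs and higher in 4 of 4 GMP pairs, where it ranged from 4.81 to 9.60 CPM in WT and from 7.14 to 17.5 CPM in UREΔ. For *Fdps* the difference was -1.02 ± 0.22 (adjusted p = 0.0145 by edgeR), since its LSK levels of 36.0, 56.2, 55.2 and 66.0 CPM in WT and 42.9, 61.5, 42.1 and 39.3 CPM in UREΔ overlapped and the pairs split 2 against 2. The calls depended on the fit and on which replicates entered. Without the block none of the 4 was called, without replicate 1 only *Mvd* was, without replicate 2 none was, without replicate 3 *Tm7sf2* was not, and without replicate 4 only *Fdps* was. In replicates 1 and 4 alone none was called, where 0.856% of all genes were higher and 0.231% lower, nor in replicates 2 and 3 alone, where 1 gene of all tested was called in each direction.

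In WT mice *Fdps*, *Ebp* and *Tm7sf2* were higher in GMPs than in LSKs, and *Srebf2*, *Insig1*, *Fdft1*, *Acss2* and *Scd1* were lower. These are 3 of 30 members called higher, where 15.8% of all 14767 genes were, and 5 called lower, where 25.1% were. *Srebf2* was the lower in each pair, with 480, 129, 95.9 and 269 CPM in LSKs and 176, 33.6, 24.3 and 77.2 CPM in GMPs, and its log2 fold change was -1.80 ± 0.11 (SE, n = 4; adjusted p = 9.73e-06 by edgeR); without the block the adjusted p was 0.107. *Fdps* rose by 1.76 ± 0.13 (log2, SE; adjusted p = 2.33e-05 by edgeR), with every GMP library above every LSK library. *Ebp*, the sterol isomerase, ranged from 49.3 to 69.1 CPM in LSKs and from 77.4 to 108 CPM in GMPs. *Acss2*, which makes acetyl-CoA from acetate, ranged from 49.3 to 87.2 CPM in LSKs and from 17.3 to 43.4 CPM in GMPs, and *Fdft1* from 28.4 to 35.0 and from 12.5 to 21.0 CPM. The fractions were apart for 2 members that were higher in GMPs (13.7% of all genes), *Fdps* and *Ebp*, and for 2 that were lower (17.6%), *Fdft1* and *Acss2*. All 7 mevalonate genes had positive estimates, where 6583 of 14767 genes did. Of the 7, 3 passed an adjusted p under 0.05 at any fold, as did 15 of the 30 members and 56.1% of all genes. *Scd1* was near the limit of detection, at 0.201 to 3.02 CPM in LSKs and 0 to 0.520 CPM in GMPs, and was not called without replicates 2, 3 or 4 in turn and too low to be tested without replicate 1. *Tm7sf2* was not called without replicate 2, and without the block *Tm7sf2*, *Insig1* and *Scd1* were not called, at adjusted p of 0.0691, 0.0604 and 0.0756. In replicates 1 and 4 alone 1 member was called in each direction, where 8.23% of all genes were higher and 11.9% lower, and in replicates 2 and 3 alone likewise 1, where 8.35% were higher and 8.04% lower.

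In UREΔ cells 6 of 29 members were called higher from LSKs to GMPs, where 13.3% of all 14395 genes were, and 1 lower, *Acss2*, where 18.6% were. The 6 were *Mvd*, *Mvk*, *Fdps*, *Tm7sf2*, *Hsd17b7* and *Ebp*, all enzymes of the sterol route. *Mvd* had a log2 fold change of 1.89 ± 0.39 (SE, n = 4; adjusted p = 0.00648 by edgeR) and *Tm7sf2* one of 1.83 ± 0.29 (adjusted p = 0.00184 by edgeR), both without overlap between the fractions. *Hsd17b7*, the ketoreductase of C4 demethylation, stood at 6.86, 6.0, 1.64 and 7.03 CPM in UREΔ LSKs and at 11.8, 15.1, 7.43 and 12.2 CPM in UREΔ GMPs. *Mvk*, mevalonate kinase, was at 7.60, 5.6, 7.08 and 9.66 CPM in LSKs and 12.5, 11.9, 11.8 and 15.5 CPM in GMPs. *Fdps* rose by 0.69 ± 0.14 (log2, SE; adjusted p = 0.00514 by edgeR), from 39.3 to 61.5 CPM to 58.1 to 112 CPM. The fractions were apart for 5 members that were higher in GMPs (12.3% of all genes), *Mvd*, *Mvk*, *Tm7sf2*, *Hsd17b7* and *Nsdhl*, and for 1 that was lower (14.3%), *Fdft1*. Estimates were positive for all 8 ring genes and all 7 mevalonate genes, where 6624 of 14395 genes were positive. *Srebf2* was not called, at -0.34 ± 0.16 (adjusted p = 0.126 by edgeR). Without the block *Tm7sf2* was the only member called, and *Mvk* was not called without replicates 1, 2 or 4 in turn, *Ebp* not without 1, 3 or 4 and *Acss2* not without 2 or 4. In replicates 1 and 4 alone 5 members were called higher, where 13.8% of all genes were, and in replicates 2 and 3 alone 0 were, where 2.47% were. The WT and UREΔ differences between fractions share no library, and their own difference is the interaction above.

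Of the 30 members 13 were called in at least 1 of these comparisons and 17 in none. The same count was not made over all genes. Of all genes tested, 9.46% were called between genotypes in LSKs and 16.3% in GMPs. Between fractions 40.9% were called in WT and 31.9% in UREΔ, and in the interaction 6.57%. *Acat2*, which joins acetyl-CoA units at the entry of the pathway and shares sequence with *Tcp1* and the barely detected *Acat3*, spanned 76.8 to 216 CPM over the 16 libraries, *Hmgcs1*, HMG-CoA synthase, 54.5 to 114 CPM and *Idi1*, the isopentenyl diphosphate isomerase, 42.2 to 116 CPM. *Pmvk*, phosphomevalonate kinase, spanned 19.1 to 31.0 CPM, *Lss*, lanosterol synthase, 10.6 to 34.9 CPM, *Nsdhl*, of C4 demethylation, 28.4 to 48.7 CPM and *Sc5d*, the sterol C5 desaturase, 30.4 to 79.6 CPM. The others were *Cyp51*, *Dhcr7*, *Insig2*, *Scap*, *Srebf1*, *Stard4*, *Acly*, *Acaca*, *Fasn* and *Scd2*.

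**Figure D3:**
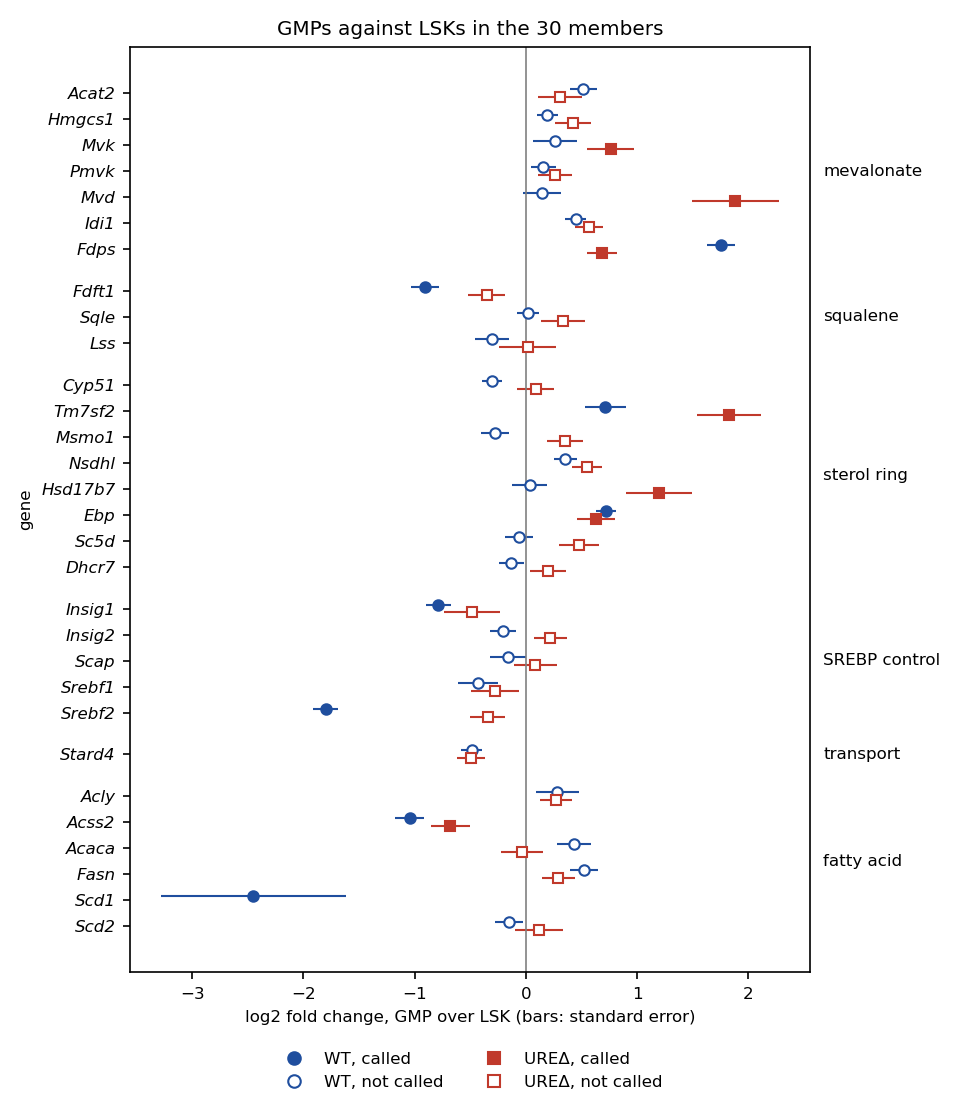
Log2 fold change of GMPs over LSKs for the 30 members in WT (circles) and UREΔ mice (squares), with bars for the standard error; filled symbols were called and *Scd1* was not tested in UREΔ. The highest estimate in WT is that of *Fdps* at 1.76, the highest in UREΔ are those of *Mvd* at 1.89 and *Tm7sf2* at 1.83, and *Srebf2* lies at -1.80 in WT and -0.34 in UREΔ.

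Genes around the pathway gave a frame for the members. Of 6 genes that process or degrade the SREBPs, 0 were called between genotypes in LSKs (3.83% of all genes higher and 5.62% lower) and 1 was called lower in GMPs (9.52% higher and 6.82% lower), *Fbxw7*, a ubiquitin ligase subunit that marks active SREBP for degradation, at -0.70 ± 0.17 (log2, SE; adjusted p = 0.0241 by edgeR). Of 10 genes of sterol export and storage 1 was called higher in LSKs, where 3.83% of all genes were, and 0 lower, where 5.62% were. It was *Soat1*, which esterifies cholesterol for storage, at 0.65 ± 0.15 (adjusted p = 0.0313 by edgeR), with 37.3 to 60.6 CPM in WT and 52.3 to 98.3 CPM in UREΔ. In GMPs 1 was called lower, where 6.82% of all genes were, and 0 higher, where 9.52% were. It was *Npc2*, a lysosomal cholesterol carrier, at -0.67 ± 0.12 (adjusted p = 0.00865 by edgeR), without overlap. The genotype effect on *Soat1* in GMPs minus that in LSKs was -1.23 ± 0.26 (adjusted p = 0.0126 by edgeR). It was the 1 call of the 10 in the interaction, where 2.60% of all genes were called lower.

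Of 15 further lipogenic genes 14 were tested in LSKs. There 1 was called higher, where 3.83% of all genes were, and 0 lower, where 5.62% were. The gene called was *Elovl6*, a fatty acid elongase, with 57.4 to 74.6 CPM in WT and 95.9 to 115 CPM in UREΔ and no overlap. In GMPs 4 of the 13 tested were called higher, where 9.52% of all genes were, and 0 lower, where 6.82% were, with log2 fold changes of 1.10 for *Aacs*, which makes acetoacetyl-CoA from ketone bodies, 0.95 for *Fads1* and 0.90 for *Fads2*, the fatty acid desaturases, and 0.68 for *Mid1ip1*, which promotes acetyl-CoA carboxylase activity. *Aacs* stood at 66.2, 21.6, 6.21 and 46.7 CPM in WT and at 83.3, 51.5, 22.1 and 99.7 CPM in UREΔ GMPs, and all 4, like *Srebf1*, were higher in replicates 1 and 4 than in 2 and 3 in both groups. The difference of the genotype effects, GMP minus LSK, was called higher for 3 of 14 lipogenic genes tested (3.97% of all genes), at 1.67 for *Aacs*, 0.92 for *Fads2* and 0.68 for *Mid1ip1* (log2), and lower for 0. Of 11 genes that make longer isoprenoids or attach them to proteins and coenzyme Q, 0 were called in LSKs, where 3.83% of all genes were higher and 5.62% lower. In GMPs 0 were called higher, where 9.52% of all genes were, and 1 lower, where 6.82% were. It was *Coq2*, of coenzyme Q synthesis, at -0.78 ± 0.23 (adjusted p = 0.0495 by edgeR). Of 18 proliferation genes 1 was called higher in UREΔ LSKs, *Mcm2*, where 3.83% of all genes were, and 0 were called in GMPs, where 9.52% were higher and 6.82% lower, whereas from LSKs to GMPs 14 rose in WT, where 15.8% of all genes did, and 8 in UREΔ, where 13.3% did. The difference between these changes had a negative estimate for all 18, where 7553 of 15935 genes were negative. It was called lower for 1, where 2.60% of all genes were, and higher for 0, where 3.97% were. The gene called was *Mcm3*, a helicase subunit, at a log2 difference of -0.45 ± 0.12 (SE, adjusted p = 0.0477 by edgeR). The summed level of these 18 was 3820 to 5240 CPM in WT LSKs, 4100 to 6690 in UREΔ LSKs, 6640 to 8610 in WT GMPs and 6270 to 8430 in UREΔ GMPs, and its part in the differences between fractions was not tested.

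*Srebf1*, *Scap* and *Srebf2* differed severalfold between replicate numbers within each group. *Srebf1*, the gene of SREBP1 (chr11:60199089-60222581), stood at 149, 16.7, 12.1 and 134 CPM in WT LSKs and 153, 13.7, 19.8 and 175 CPM in UREΔ LSKs of replicates 1 to 4. In GMPs it stood at 134, 10.5, 13.6 and 68.1 CPM in WT and 110, 21.8, 13.1 and 123 CPM in UREΔ. Replicates 1 and 4 were thus above replicates 2 and 3 in all 4 groups, by 8.53-fold on average; the grouping was drawn with the levels of *Srebf1* in view, so this is a description of that gene. The same held without overlap for 7 other members, *Srebf2*, *Scap*, *Acaca*, *Acly*, *Fasn*, *Dhcr7* and *Mvk*, where 12.3% of 15935 genes showed it, and the reverse for 0 members, where 6.16% did.

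The ratio was 3.96 for *Scap*, 3.81 for *Srebf2*, 2.28 for *Acaca*, 2.21 for *Acly* and 2.02 for *Fasn*, while *Hmgcs1*, *Cyp51* and *Sc5d* had ratios of 1.05, 1.01 and 0.978. The transcripts of *Srebf1* have a GC content of 59.4%, those of *Fasn* 58.3%, those of *Srebf2* 57.1% and those of *Scap* 55.3%, but *Acaca* has 47.0% and *Acly* 52.3%. *Mvk*, at 58.5% GC, had a ratio of 1.46. *Mvd*, at 59.2% GC, had a ratio of 1.24, *Pmvk*, at 55.5%, one of 0.825 and *Tm7sf2*, at 55.4%, one of 0.857. Over all genes tested the median log2 difference rose from -0.24 in the lowest of 5 bins of GC content to 0.37 in the highest, and over the 30 members Spearman's rho with GC content was 0.338, which is a description across genes that share their libraries. This grouping of the replicate numbers came from the data, the labels give no reason for it, and its part in the level of any 1 gene was not tested. Within replicates 1 and 4 the log2 fold change of *Srebf2* in LSKs was -1.36 (adjusted p = 0.0436 by edgeR) and within replicates 2 and 3 it was -1.68 (adjusted p = 0.0349 by edgeR). These fits are no independent check, because they split the libraries along a grouping in which *Srebf2* itself differed 3.81-fold. In replicates 2 and 3 genotype and sex cannot be told apart. With the Y-linked level as a further term over all replicates the adjusted p was 0.0972 by edgeR.

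**Figure D4:**
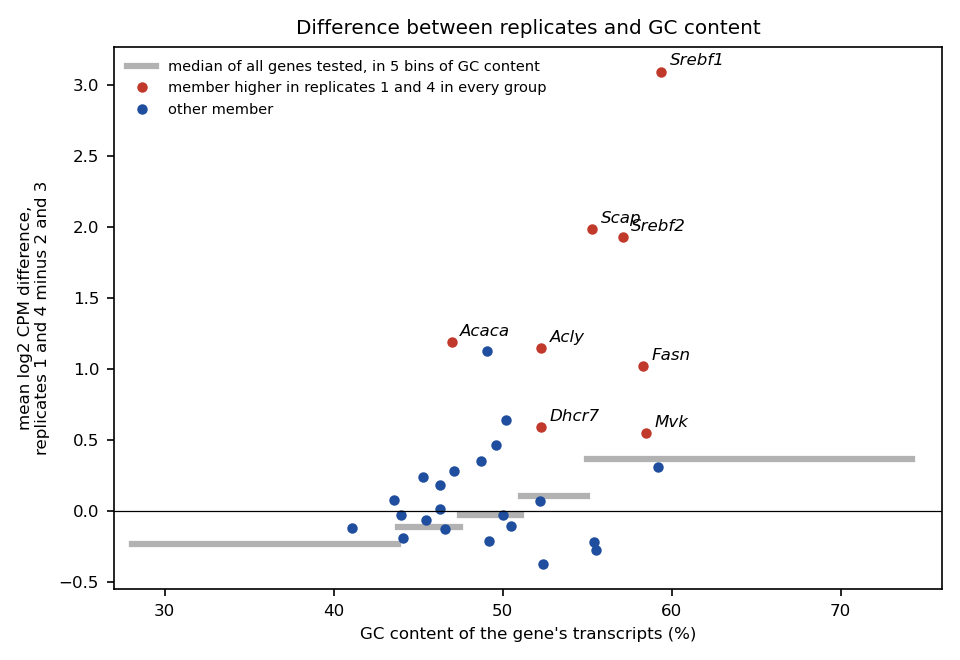
Mean log2 difference in CPM between replicates 1 and 4 and replicates 2 and 3, over the 4 groups, against the GC content of each member's transcripts; grey lines are medians of all genes tested in 5 bins of GC content. The 8 members higher in replicates 1 and 4 in every group are named, with *Srebf1* at 8.53-fold, above the grey median of its bin.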

How the data were processed

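The authors quantified paired-end, unstranded low-input RNA-seq reads with Salmon against GRCm38 and summed transcripts to genes; the annotation release for these libraries is not given in the sources used here. The deposited table holds these estimated counts, rounded to whole numbers, for 54347 genes in 16 libraries, and all 16 columns were used. Salmon and GRCm38 are named in the submitters' processing notes.

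Counts were tested with edgeR 4.0.16 in R 4.3.3 (TMM factors, filterByExpr, quasi-likelihood test) and the replicate number as a block. The deviations of same-numbered libraries from their group means correlated at 0.237 to 0.711 in all 6 pairs of groups. Different numbers within replicates 1 and 4 or within 2 and 3 correlated at means of 0.215 to 0.265. Across these 2 sets the means were -0.395 to -0.317. The same number was not always the closest match. UREΔ GMPs of replicate 4 correlated at 0.385 with WT GMPs of replicate 1 and at 0.237 with those of replicate 4. Libraries of 1 group differed by at least 29.6 times sampling noise (chi-square per degree of freedom). Genes were called at a Benjamini-Hochberg adjusted p under 0.05 over all genes tested and a fold above 1.5, and the difference of genotype effects at the adjusted p alone. The study's methods give 4 mice for each genotype and fraction. With the block, p-values measure the spread between libraries that is left after differences between replicate numbers are taken out. Without it they measure the whole spread within groups. Whether the 2 fractions of 1 number share a mouse is not known. CPM use TMM sizes over the 16 libraries, and log2 CPM a prior count of 2. The least-counted tested member after Scd1, Mvd, had 16 to 355 counts per library. Standard errors were derived from the quasi-likelihood F. The scripts were tested on simulated counts. Alternatives were DESeq2 1.42.0, RLE factors, other filters, no block, a 2-level block, a Y-linked covariate, 1 fit of all libraries, subsets of replicates and leaving out each replicate. Members and lists were chosen with earlier results of these data known. The text names all members, Spi1, the genes of 5 context lists called between genotypes or in the interaction, and gives full statistics for members called between genotypes and for Srebf1, Srebf2, Insig1 and Insig2. Exon coordinates, length and GC content came from GENCODE M21 on GRCm38, transcript copies from minimap2 2.31-r1302, and promoters from RefSeq on GRCm38.p6. The first rule for promoters, to print that of a member called between genotypes that holds TCACNCCAC, found none, and the 3 printed were chosen later.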

Additional observations from a re-analysis of the deposited data

Results flagged for a closer look

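In 7 of 120 sets of 4 libraries (1 member in 1 group) a library lay far from the other 3, where chance gives about 6.0. In UREΔ LSKs these were *Fdps* in replicate 2 (61.5 CPM, highest) and *Lss* in replicate 4 (34.5 CPM, highest). In UREΔ GMPs they were *Tm7sf2* in replicate 2 (17.5 CPM, highest), *Insig1* in replicate 2 (18.6 CPM, highest) and *Dhcr7* in replicate 3 (35.5 CPM, lowest). In WT GMPs replicate 3 was the lowest for *Stard4* (55.6 CPM) and *Scd2* (42.6 CPM).

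The genotype effect differed between GMPs and LSKs in the interaction test by 1.73 on the log2 scale for *Mvd*, 1.46 for *Srebf2*, 1.15 for *Tm7sf2* and -1.02 for *Fdps*.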

How the results depend on the processing

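Direction was followed for the members called in each comparison and for *Srebf1*, *Srebf2*, *Insig1* and *Insig2* between genotypes. Of their 440 values under alternatives, 342 kept direction and side of the threshold, 90 kept direction only and 8 reversed. Without the replicate block, members called lower went from 3 to 1 in LSKs, from 5 to 2 for maturation in WT and from 1 to 0 in UREΔ. Higher ones in UREΔ maturation went from 6 to 1, and the interaction from 3 higher and 1 lower to 0 and 0. No call in GMPs changed. Over all genes, lower calls went from 852 to 570 in LSKs, from 3706 to 2335 in WT and from 2682 to 1808 in UREΔ maturation. Higher calls in UREΔ maturation went from 1909 to 1325, and the interaction from 632 higher and 415 lower to 138 and 56. In pairs of replicates, 1 and 4 alone left 1 lower in LSKs, 1 and 1 for maturation in WT, 0 lower in UREΔ and 0 in the interaction. Replicates 2 and 3 alone left 1 lower in LSKs, 0 lower in GMPs, 1 and 1 for WT, 0 and 0 for UREΔ and 0 in the interaction. These fits hold fewer samples. Of all genes, 4.13% were lower in LSKs and 14.9% in UREΔ maturation in replicates 1 and 4. In replicates 2 and 3, 1.46% were lower in LSKs, 0.366% in GMPs and 3.04% in UREΔ maturation. DESeq2 called 1 higher and 5 lower in LSKs, 1 higher in GMPs and 5 higher for WT maturation, RLE factors 5 higher and no fold threshold 8 higher there, and no fold threshold 2 lower in UREΔ. Over all genes DESeq2 called 911 higher and 1221 lower in LSKs, 1627 higher in GMPs and 2847 higher for WT maturation. There RLE factors gave 2707 higher and no fold threshold 3725, and no fold threshold gave 2989 lower in UREΔ. With all 16 libraries in 1 fit there was 1 higher in each genotype comparison and 0 lower in UREΔ maturation, and without a count filter 1 higher in GMPs. Over all genes the single fit gave 813 higher in LSKs, 1596 higher in GMPs and 3139 lower in UREΔ maturation. Without a count filter 1723 were higher in GMPs. The 2-level term gave 0 lower in UREΔ maturation and 1 higher in the interaction, where it gave 2406 and 368 over all genes. With the Y-linked level 0 were lower in LSKs, where 2.61% of all genes were. Leaving out each replicate gave 2 to 3 lower in LSKs, 0 to 1 higher in GMPs, 3 to 6 higher in WT maturation, 0 to 1 lower in UREΔ, and 0 to 2 higher and 0 to 1 lower in the interaction. Over all genes these fits gave 507 to 948 lower in LSKs, 787 to 1078 higher in GMPs and 2187 to 2433 higher in WT maturation. They gave 1880 to 2726 lower in UREΔ maturation, and 168 to 779 higher and 46 to 649 lower in the interaction. The cause was not tested.

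The reversals concerned uncalled values near 0. *Insig2* in LSKs was -0.14 with the Y-linked level, -0.14 in replicates 1 and 4, and -0.040 to 0.073 when each replicate was left out. *Insig1* in GMPs was 0.21 in replicates 2 and 3 and -0.44 to 0.036 when each was left out, and *Srebf2* in GMPs 0.060 in replicates 2 and 3 and -0.22 to 0.25 when each was left out. Depth limited *Scd1*, *Mvd*, *Hsd17b7* and *Tm7sf2*, whose lowest libraries held 0, 16, 39 and 43 counts.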

Other observations

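Between LSKs and GMPs the genes around the pathway moved in both directions. In WT mice 1 of 13 lipogenic genes tested was higher in GMPs and 7 were lower, and of 10 genes of sterol export and storage 2 were higher and 3 lower, where 15.8% of all genes were higher and 25.1% lower (edgeR, adjusted p under 0.05 and fold above 1.5). In UREΔ mice 4 of 14 lipogenic genes tested were higher and 4 lower, and of the 10 genes 1 was higher and 3 lower, where 13.3% and 18.6% of all genes were. The following genes were chosen after their values were seen. *Tmem97*, a sterol-responsive membrane protein, stood at 24.6 to 38.8 CPM in WT LSKs and 94.9 to 131 CPM in WT GMPs, and at 23.0 to 37.0 and 66.2 to 104 CPM in UREΔ mice. *Abca1*, a cholesterol exporter, stood at 13.4 to 19.6 CPM in WT LSKs and 3.27 to 7.02 CPM in WT GMPs, and at 17.2 to 43.3 and 4.70 to 12.4 CPM in UREΔ mice. In both genotypes the 2 fractions did not overlap for either gene.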
